A study of Mus musculus with 6 samples.

Results

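The mRNA levels of 7 cyclic nucleotide phosphodiesterase genes, Pde2a, Pde3b, Pde4a, Pde4b, Pde4d, Pde7a and Pde8a, were compared in mouse follicular B cells after 1 h of culture. The genes were listed by name for their role in cAMP breakdown, and all 7 were found among the 12431 genes of the count table. The cells were sorted from spleens of adult male mice as CD23+ CD21/35- by their label and were cultured in complete RPMI with no added stimulus. WT cells came from Gpr174+/Y mice. GPR174-deficient (KO) cells came from Gpr174-/Y mice, whose single coding exon of Gpr174 is replaced in frame by tdTomato in every cell, so that B cells were not the only cells lacking the receptor. There were 3 WT and 3 KO libraries, numbered 1 to 3 in the labels. The study gives separate mice for its other culture times and does not say so for this one, so p-values measure only the spread between these samples. The question addressed was which of these enzymes dominate in follicular B cells and which differ with the genotype of GPR174, a receptor that signals through Gαs.

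Gαs switches on adenylyl cyclases, which make cAMP, and cAMP acts mainly through protein kinase A and the transcription factor CREB. Phosphodiesterases hydrolyse cyclic nucleotides and so end the signal. PDE4, PDE7 and PDE8 enzymes are specific for cAMP, PDE3B hydrolyses cAMP and is inhibited by cGMP, and PDE2A hydrolyses both nucleotides and is stimulated by cGMP. PDE4 genes are known CREB targets in several cell types, and long PDE4 forms and PDE3B can be activated by protein kinase A, which makes these enzymes feedback brakes on cAMP in leukocytes.

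Total counts lay between 8452460 and 10944833 per library. The libraries were made with a 3′ kit, in which a transcript is read at its end, and values below are CPM (TMM-scaled counts at equal library size). Gpr174 itself was counted at 135.9, 125.5 and 121.5 CPM in WT and at 99.8, 100.2 and 99.8 CPM in KO replicates 1 to 3. It was called higher in WT, at a log2 fold change of 0.35 (edgeR adjusted p 0.0359). Which part of the gene its reads came from was not tested, so these values gave no check of the genotype. WT replicate 2 stood apart from the rest on the first principal component, at a score of 32.5 against -8.18 to -4.33 in the other 5 libraries, and values without it are given beside the genes that were called. The B cell genes Ms4a1 and Cd79b lay between 720.3 and 1413 CPM in all 6 libraries, Cd79a between 44.5 and 58.0 CPM and Pax5 between 7.41 and 15.3 CPM, while the 7 T cell markers in the table lay between 0 and 4.39 CPM, with Cd3d at the upper end and Cd3g at 0 in KO replicate 1. In bulk RNA, fewer cells of a type and less RNA per cell cannot be told apart.

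Of the 7 phosphodiesterase genes, 3 were called higher in WT at an edgeR adjusted p under 0.05, namely Pde4b, Pde4d and Pde3b, and 0 were called lower. Over all 10514 tested genes, 1.82% were called in either direction, 1.3% higher and 0.514% lower in WT. DESeq2 also called 3 of the 7 (2.55% of genes) and limma-voom called 2 of them (1.64%). Pde2a, lower in WT, also passed an unadjusted edgeR threshold of 0.05, as did 11.9% of all genes. The median log2 fold change of WT over KO was 0.03 for the 7 genes and -0.003 for all tested genes, so the 7 did not move as a block. WT and KO values did not overlap in 4 of the 7 genes, 3 of them higher and 1 lower in WT, and in 16.7% of all tested genes (8.43% higher and 8.28% lower in WT).

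**Figure D1:**
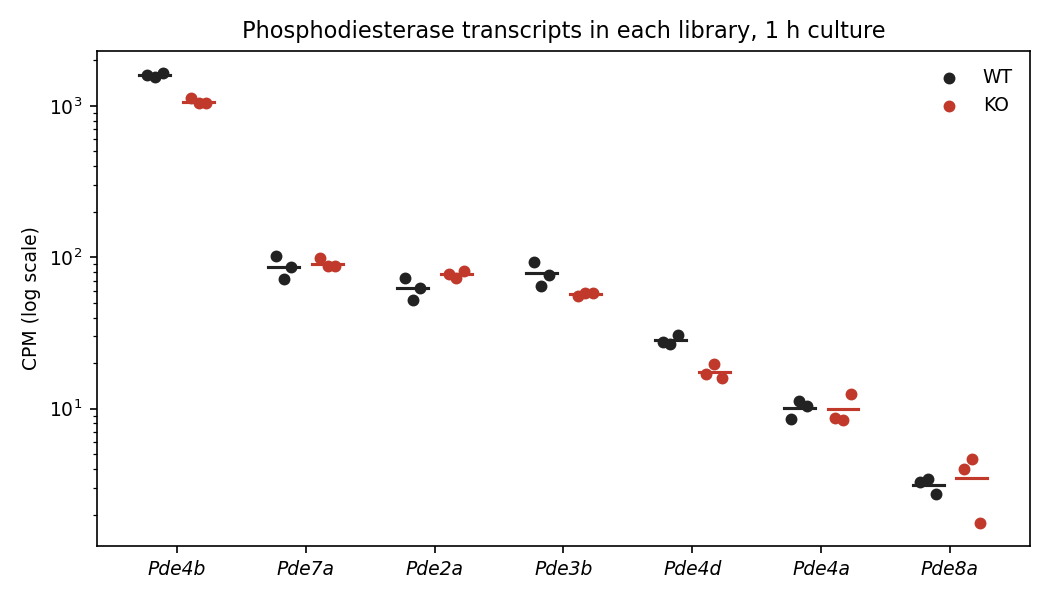
CPM of each phosphodiesterase gene in each library, on a log axis, with genes ordered by their mean level. Points are libraries (black, WT; red, KO) and lines are group means. Pde4b lies at 1037 CPM or above in all 6 libraries and the other 6 genes lie at or below 102 CPM.

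Pde4b dominated this group of genes in both genotypes. The gene encodes a cAMP-specific enzyme that is a main phosphodiesterase of leukocytes, and it lies on chromosome 4 at 102087543 to 102607259 (mm10, plus strand). Its level was 1589, 1550.5 and 1642 CPM in WT and 1121, 1046 and 1037 CPM in KO replicates 1 to 3. Every WT library was above every KO library, with a gap between the groups that was wider than the spread within either of them. Mean levels were 1594 ± 46.2 CPM for WT and 1068 ± 46.4 CPM for KO (SD, n = 3 each), the KO mean being 67.0% of the WT mean. On the log2 scale WT exceeded KO by 0.58 ± 0.06 (SE; 95% interval 0.45 to 0.70; edgeR adjusted p 3.91e-07). Leaving out any 1 of the 6 libraries kept the call, at log2 fold changes from 0.55 to 0.61. Without WT replicate 2 it was 0.60, with an edgeR adjusted p of 3.68e-07. Pde4b ranked 65 of 12431 genes by mean CPM.

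Pde4b has 9 annotated protein-coding transcripts with 9 different starts, and 6 of them share the most distal last exon. Counts from a 3′ kit therefore add up long and short forms, and which start was used cannot be told apart. RefSeq windows of 250 bases before a start (GRCm38.p6) were found for 5 of the 7 genes, as 14 windows. Pde3b and Pde7a had no entry. The windows were searched on both strands for the cAMP response element TGACGTCA and for its 5-base core, TGACG or CGTCA, which also lies inside the full element. None of the 14 windows held the full element, which 1.55% of all 32851 windows hold. The core was in 3 of the 14 windows, 1 each of Pde4b, Pde4a and Pde8a, and in 17.8% of all windows. The stretches around it are shown because they set a gene that followed genotype beside 2 that were not called. Each has 30 bases on the plus strand, and capitals mark the core.
Pde4b, chr4:102421509-102421538: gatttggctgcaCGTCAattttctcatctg
Pde4a, chr9:21184039-21184068: ggcacagctcgaCGTCAggctggggaggag
Pde8a, chr7:81213169-81213198: gctgctttgcatTGACGccagcagccgctg
The core starts 34 bases before the RefSeq start in Pde4b, 50 in Pde4a and 84 in Pde8a, and in Pde4b it lies inside an exon of the GENCODE annotation. Pde4d, a gene that was called, has 12 protein-coding transcripts with 12 different starts but only 1 RefSeq window. That window held no core. Its exon-free part is shown for comparison, with 178 bases on the plus strand.
Pde4d, chr13:108653927-108654104: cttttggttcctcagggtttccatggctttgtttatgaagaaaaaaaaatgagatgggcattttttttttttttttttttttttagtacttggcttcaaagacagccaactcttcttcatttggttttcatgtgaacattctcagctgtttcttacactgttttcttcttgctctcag
The core was thus found in the called gene Pde4b and in the uncalled genes Pde4a and Pde8a, but not in the window of the called gene Pde4d. A match is a run of letters and was not tested as a binding site.

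Pde4d, a further cAMP-specific gene of the PDE4 subfamily, had the largest estimate among the 7 at a level far below Pde4b. It spans 1503514 bases of chromosome 13, from 108449948 to 109953461 on the plus strand, and 11 of its 12 protein-coding transcripts share the most distal last exon. Its level was 27.4, 26.7 and 30.9 CPM in WT and 16.9, 19.7 and 16.0 CPM in KO, and the groups did not overlap. The KO mean was 61.9% of the WT mean. WT exceeded KO by 0.69 ± 0.17 (SE) on the log2 scale, with a 95% interval of 0.34 to 1.05 and an edgeR adjusted p of 0.0315. The estimate stayed between 0.63 and 0.78 when one library was left out, but the call was kept only without WT replicate 2 (adjusted p 0.0302). The edgeR adjusted p was 0.0652 without WT replicate 1, 0.12 without WT replicate 3, and 0.137, 0.0536 and 0.201 without KO replicates 1, 2 and 3. The gene rested on 164 to 300 counts per library.

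Pde4a, the third PDE4 gene of the list, was low and was not called. It stood at 8.60, 11.3 and 10.4 CPM in WT and 8.74, 8.39 and 12.6 CPM in KO, with overlapping groups. Its log2 fold change was 0.03 ± 0.26 (SE), and its 95% interval, from -0.50 to 0.56, overlapped that of Pde4b. Its sign turned on leaving out 3 of the 6 libraries in turn (without WT replicate 2, KO replicate 1 and KO replicate 2), and it was called in 0 of the 15 alternatives.

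**Figure D2:**
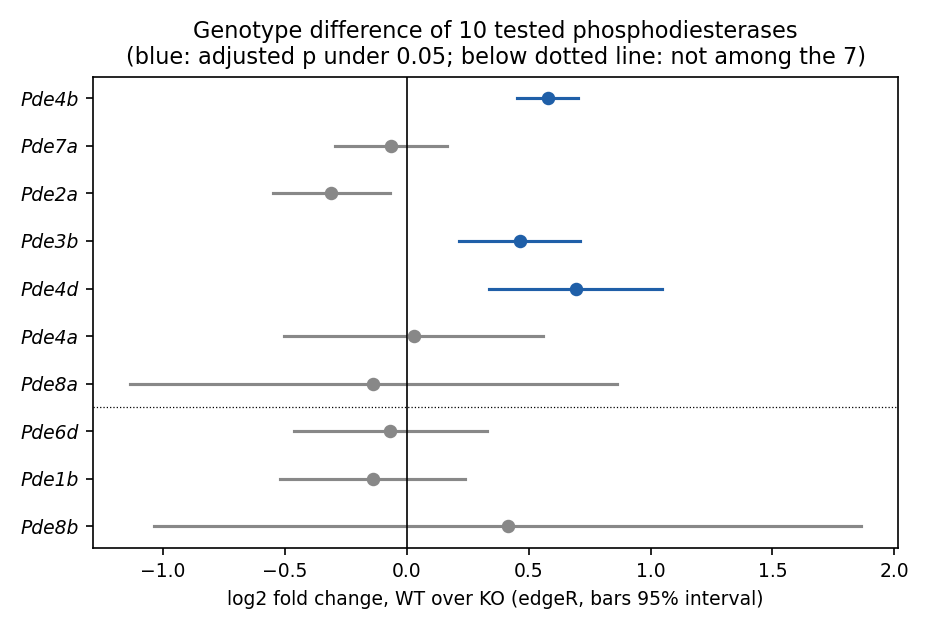
Log2 fold change of WT over KO from edgeR for the 7 listed phosphodiesterase genes and, under the dotted line, the 3 other phosphodiesterase genes that passed the filter on low counts. Points are estimates and bars are 95% intervals; blue marks an adjusted p under 0.05. Pde4b, Pde4d and Pde3b lie to the right of 0 with their whole interval, and Pde2a to the left of it without passing the adjusted threshold.

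Pde3b, whose enzyme is inhibited by cGMP, was called higher in WT, and Pde2a, whose enzyme is stimulated by cGMP, was not called. Pde3b (chromosome 7, 114415281 to 114539251) stood at 93.8, 65.0 and 76.3 CPM in WT and at 55.2, 58.1 and 57.7 CPM in KO. All WT libraries were above all KO libraries, but WT values spread widely, with WT replicate 2 the lowest of them. Mean levels were 78.4 ± 14.5 CPM for WT and 57.0 ± 1.60 CPM for KO (SD, n = 3 each), a log2 difference of 0.46 ± 0.12 (SE; edgeR adjusted p 0.0417). The call was lost under limma-voom (adjusted p 0.0613), upper-quartile factors (0.0508) and dispersions that were not robust (0.0609). Without WT replicate 2 the log2 fold change was 0.58 with an edgeR adjusted p of 0.00334. Without WT replicates 1 and 3 the adjusted p was 0.283 and 0.0943, and without KO replicates 1, 2 and 3 it was 0.174, 0.137 and 0.18.

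Pde2a (chromosome 7, 101421691 to 101512827) was at 72.6, 52.1 and 62.3 CPM in WT and at 77.7, 73.2 and 81.4 CPM in KO. Here every KO library was above every WT library, although WT replicate 1 and KO replicate 2 were close. The estimate on the log2 scale was -0.31 ± 0.12 (SE), with a 95% interval of -0.55 to -0.07 and an edgeR adjusted p of 0.231, so the difference did not pass the threshold over all genes. It was negative in all 15 alternatives, with adjusted p values from 0.0826 to 0.586. Its size rested in part on single libraries, at -0.20 without WT replicate 2 (edgeR adjusted p 0.57) and -0.44 without WT replicate 1 (edgeR adjusted p 0.0826). In GENCODE M21 the gene Gm45837 shares 3955 exon bases with Pde2a on the same strand, 1364 of them in the most distal last exon of Pde2a. Whether Gm45837 was in the annotation used for counting is not given, so the count of Pde2a is uncertain.

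The order of Pde3b and Pde2a differed between the genotypes. In CPM, Pde3b was above Pde2a in all 3 WT libraries and below it in all 3 KO libraries. This crossing was chosen after the values were seen and was not tested. Divided by the longest annotated transcript, Pde2a was the higher of both genes in WT (14.8 against 11.9 CPM per kb) and in KO (18.4 against 8.67 CPM per kb). The crossing was thus not seen per length, while the gap between them was narrower in WT. Counts of a 3′ kit are not expected to grow with transcript length, so values per kb do not settle which gene was higher.

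Pde7a and Pde8a encode high-affinity cAMP-specific enzymes, and PDE8 is known for its insensitivity to the common inhibitor IBMX. Pde7a (chromosome 3, 19223108 to 19311322, minus strand) was next to Pde4b by mean CPM, at 102, 72.0 and 86.3 CPM in WT and 98.2, 87.0 and 87.3 CPM in KO. The groups overlapped, at a log2 fold change of -0.06 ± 0.11 (SE; edgeR adjusted p 0.881). Its 95% interval of -0.29 to 0.17 lies wholly under that of Pde4b. The sign turned without WT replicate 2, the lowest of the 6 libraries for this gene. An antisense gene, Gm16093, shares 48 bases of its last exon, and whether counting used strand is not given in the sources used here.

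Pde8a (chromosome 7, 81213596 to 81334533) was the lowest of the 7 genes. It was at 3.29, 3.46 and 2.72 CPM in WT and at 4.005, 4.69 and 1.75 CPM in KO, from 18 to 44 counts per library. KO replicate 3 was the lowest and KO replicate 2 the highest of all 6. Its log2 fold change was -0.14 ± 0.49 (SE), and the 95% interval from -1.14 to 0.86 means that a change of the size seen in Pde4b was not detectable at this depth. The plot of effects shows this width beside the narrow bar of Pde4b.

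Ordered by mean CPM over the 6 libraries, the genes ran Pde4b (1331), Pde7a (88.8), Pde2a (69.9), Pde3b (67.7), Pde4d (22.9), Pde4a (10.0) and Pde8a (3.32). Pde4b was 18.4 times as high as Pde7a in WT and 11.8 times in KO, and its lowest library (1037 CPM) was far above the highest of Pde7a (102 CPM). Over the 6 libraries the range of Pde2a overlapped that of Pde7a and that of Pde3b. Within libraries Pde7a was above Pde2a in all 6, while Pde3b was above Pde2a in all 3 WT libraries. Pde4d, Pde4a and Pde8a each lay below the one before in every library, with no overlap over the 6 libraries. Because counts of a 3′ kit are not expected to grow with transcript length, this order is in CPM. Per kb of the longest transcript, Pde4b was still first (309.2 CPM per kb) and Pde2a (16.6) came before Pde7a (14.1) and Pde3b (10.3), with Pde4d (5.45), Pde4a (2.15) and Pde8a (0.87) after them.

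**Figure D3:**
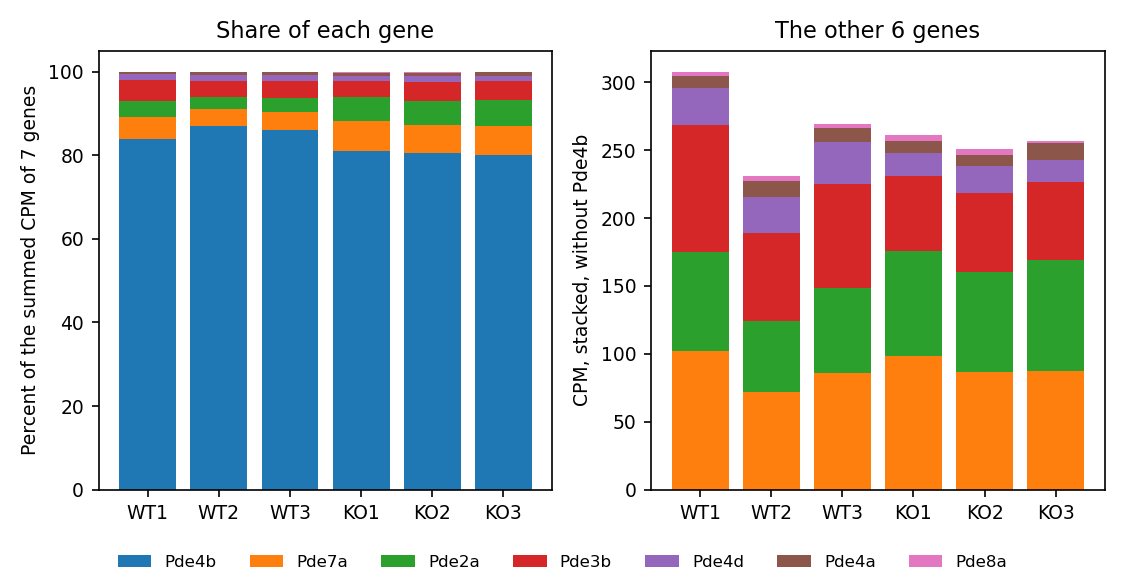
Left, percent of the summed CPM of the 7 genes that each gene held in each library. Right, CPM of the 6 genes other than Pde4b, stacked. Pde4b held 83.8% to 87.1% in WT and 80.2% to 81.1% in KO, and the stacks of the other 6 genes overlapped between the genotypes.

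Summed over the 7 genes, phosphodiesterase transcripts were at 1896, 1781 and 1911 CPM in WT and at 1382, 1297 and 1294 CPM in KO. The sum was 40.7% higher in WT, all WT libraries were above all KO libraries, and an exact two-sided permutation test gave p = 0.1, which is the lowest value possible with 3 libraries on each side. Pde4b made up 97.6% of the difference between the sums. Without Pde4b the sums were 307.8, 230.6 and 268.9 CPM in WT and 260.8, 251.1 and 256.8 CPM in KO, which overlapped (exact permutation p = 0.7). In that remainder WT minus KO was 21.4 CPM for Pde3b, 10.8 CPM for Pde4d, -15.1 CPM for Pde2a and -4.08 CPM for Pde7a.

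Pde4b held 83.8% of the members' counts in WT replicate 1 (Wilson 95% interval 83.3% to 84.3%), 87.1% in WT replicate 2 (86.5% to 87.6%) and 85.9% in WT replicate 3 (85.4% to 86.4%). In KO replicates 1 to 3 its share was 81.1% (80.5% to 81.7%), 80.6% (79.9% to 81.3%) and 80.2% (79.5% to 80.8%). These intervals cover counting error only. The share was higher in each WT library than in each KO library, by 4.94 percentage points on average, with an exact permutation p of 0.1 and an adjusted p of 0.233 over the 7 shares. The shares of Pde2a and Pde7a were smaller in WT with no overlap, by -2.51 and -2.21 percentage points, also at an exact permutation p of 0.1. Shares are parts of one whole, so a larger share of Pde4b leaves less for the others together. In CPM, Pde7a overlapped between the genotypes. Shares of Pde3b differed by -0.12 percentage points, those of Pde4d by 0.19 and those of Pde4a by -0.21, and their groups overlapped. With 3 libraries a group no share could pass 0.05.

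To ask whether the genotype difference itself differed between members, the log2 ratio of Pde4b to each other member was compared within libraries. The ratio to Pde2a was 4.45, 4.90 and 4.72 in WT and 3.85, 3.84 and 3.67 in KO. The ratio to Pde7a was 3.96, 4.43 and 4.25 in WT and 3.51, 3.59 and 3.57 in KO. For both of these and for Pde4a the WT ratios lay above all KO ratios, by 0.90, 0.66 and 0.53 on the log2 scale, each at an exact permutation p of 0.1 and an adjusted p of 0.2 over the 6 ratios. The ratios of Pde4b to Pde3b and to Pde4d overlapped between the genotypes, with differences of 0.14 (exact permutation p = 0.6) and -0.12 (exact permutation p = 0.4). The ratio to Pde8a differed by 0.61 with overlapping groups (exact permutation p = 0.3). With 3 libraries a group, none of these tests could pass 0.05.

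**Figure D4:**
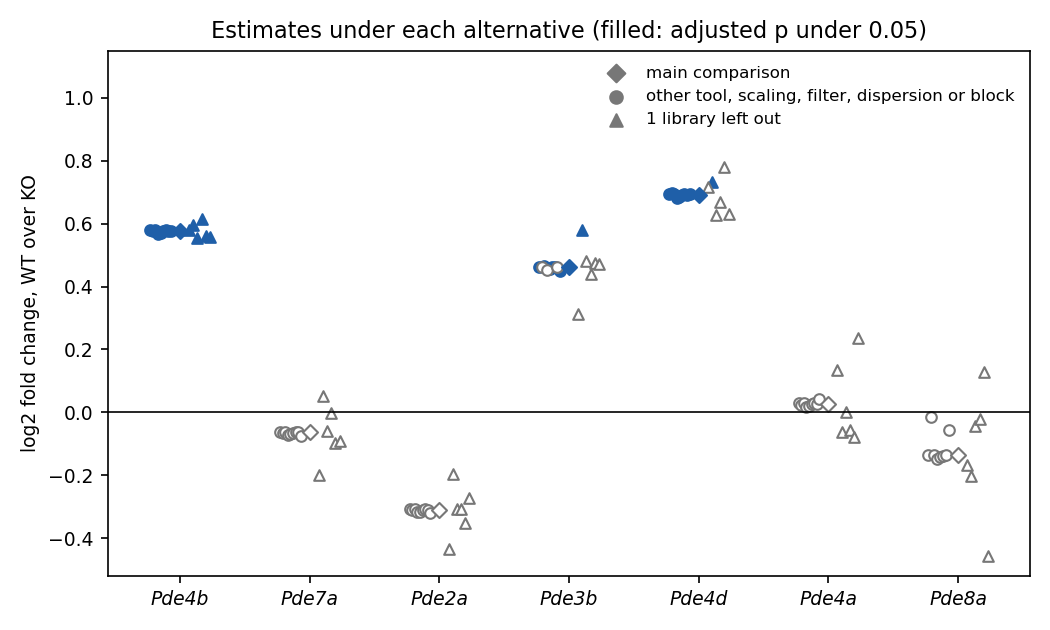
Log2 fold change of WT over KO for each gene in the main comparison (diamonds), under another tool, scaling, filter, dispersion or the replicate block (circles) and with one library left out (triangles). Filled symbols have an adjusted p under 0.05. Pde4b is filled throughout, from 0.55 to 0.61, and Pde4d and Pde3b are filled among the triangles only without WT replicate 2.

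Of 17 other phosphodiesterase genes that were listed, 10 were in the table, 3 passed the filter on low counts and 0 were called by edgeR in either direction, and 0 passed an unadjusted threshold of 0.05. Pde6d, which encodes a prenyl-binding subunit, was at 19.5 CPM for WT and 20.6 CPM for KO. Pde1b, a gene for a calcium- and calmodulin-activated enzyme, was at 19.1 and 21.0 CPM, and Pde8b was at 1.76 and 1.34 CPM. Their log2 fold changes were -0.07, -0.14 and 0.41. Over all 17 phosphodiesterase genes in the table Pde4b held 83.6% ± 1.76 of the summed CPM for WT and 77.9% ± 0.60 for KO (SD, n = 3 each). The fourth PDE4 gene, Pde4c, named after its values were seen, had 0, 0 and 4 counts in WT and 16, 5 and 16 counts in KO replicates 1 to 3. It did not pass the filter and was not tested, and a count of 0 allows up to 0.274 and 0.358 CPM in WT replicates 1 and 2.

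Genes that make, sense and export the nucleotides, or anchor the enzymes, were then set beside the members. Of 8 genes of cAMP and cGMP synthesis in the table, 4 were tested and 0 were called by edgeR. Gnas, the gene for Gαs, was at 1055 ± 30.4 CPM for WT and 1051 ± 43.6 CPM for KO (SD, n = 3 each). Adcy7, an adenylyl cyclase of blood cells, was at 121.2 and 120.4 CPM, and Gnal, for a G protein subunit related to Gαs, at 85.6 and 104.2 CPM (log2 fold change -0.28, edgeR adjusted p 0.214), with all KO libraries of Gnal above all WT libraries. Of 10 genes of cAMP sensing and export, 10 were tested and 0 were called. Prkar1a, a type I regulatory subunit of protein kinase A, was at 555.0 ± 11.3 CPM for WT and 487.5 ± 7.60 CPM for KO (SD, n = 3 each), with all WT libraries above all KO libraries and an edgeR adjusted p of 0.171. Prkacb, a catalytic subunit, was at 181.1 and 170.8 CPM, and the kinase inhibitor gene Pkig at 87.9 and 87.4 CPM.

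Of 17 genes for partners and anchors of phosphodiesterases in the table, 16 were tested and 0 were called. Rack1 (listed as Gnb2l1), whose protein binds PDE4 enzymes, was at 1879 CPM for WT and 2160 CPM for KO (edgeR adjusted p 0.123). The anchor genes Akap13 and Akap9 were at 772.2 against 835.9 CPM and at 364.9 against 371.6 CPM. All KO libraries were above all WT libraries for Rack1 and Akap13, and the groups overlapped for Akap9. An unadjusted edgeR threshold of 0.05 was passed by 1 gene of synthesis (Gnal), 1 of sensing and export (Prkar1a) and 3 of partners and anchors. DESeq2 and limma-voom also called 0 genes of these 3 lists. The median log2 fold changes of the 3 lists were -0.14, 0.09 and -0.05.

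The genes whose log2 CPM followed each called member most closely over the 6 libraries were searched among 8868 other genes. For Pde4b they were Syngr2, Tmsb4x and Bcl2l11, with Pearson's r of 0.999, 0.997 and 0.995. All 3 were called in the same direction as Pde4b, at log2 fold changes of 0.42, 0.32 and 0.95. For Pde4d they were Heatr5b, Samd8 and Gar1 (r from 0.989 to 0.993), of which Samd8 was called. For Pde3b they were Sclt1, Stx6 and Rsrc2 (r from 0.982 to 0.987), of which 0 were called by edgeR at an adjusted p under 0.05. With 6 points that fall into genotypes and were searched over so many genes, these values only describe the libraries. Between members, Pde4b and Pde4d had an r of 0.95 over the 6 libraries, Pde4b and Pde3b of 0.82, and Pde4b and Pde7a of -0.17.

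**Figure D5:**
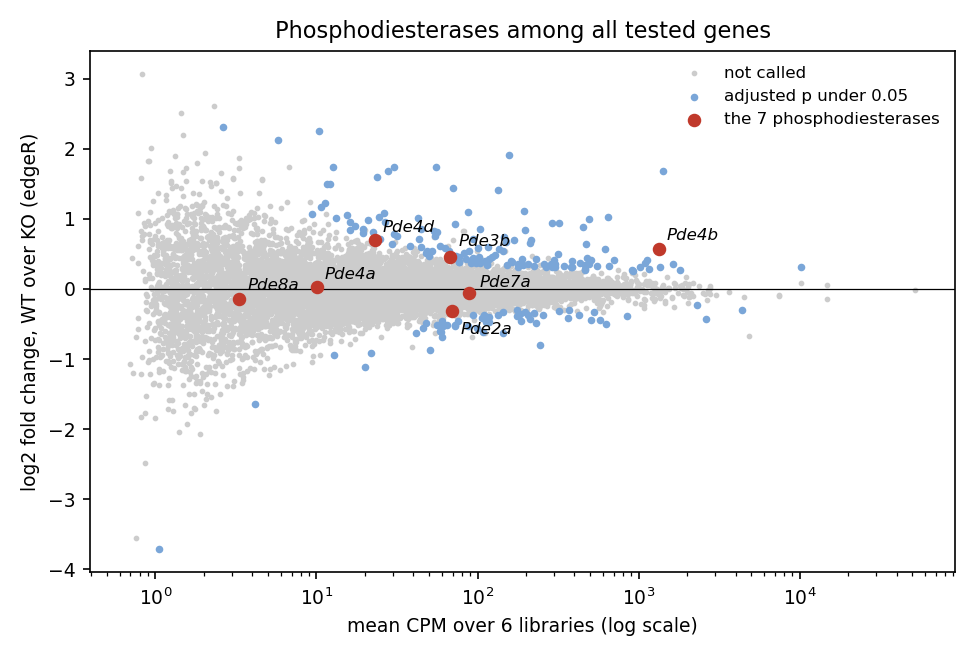
Log2 fold change of WT over KO (edgeR) against mean CPM over the 6 libraries, on a log axis, for the 10514 tested genes. Light blue marks genes with an adjusted p under 0.05 and red the 7 phosphodiesterases. Pde4b stands at the abundant end at 0.58, and Pde8a and Pde4a lie near 0 at the low end.

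Markers of other cells that express phosphodiesterases were measured beside these results. The summed CPM of 7 T cell markers lay between 9.66 and 14.4 in WT and between 5.83 and 10.9 in KO. That of 5 NK cell markers lay between 7.83 and 14.1 in WT and between 6.53 and 7.30 in KO, and that of 8 myeloid markers between 77.1 and 99.9 in WT and between 71.7 and 75.9 in KO. The last 2 sums did not overlap between the genotypes, yet 0 of the tested genes of these 3 lists were called by edgeR. The summed CPM of 8 follicular B cell markers was lower in WT, between 4399 and 4616 against 4994 and 5156 in KO, and edgeR called 1 of the 8 (Cd79b, lower in WT). Sums of 6 marginal zone markers lay between 1275 and 1365 CPM in WT and between 1251 and 1446 CPM in KO. Most of that sum was Cr2, at mean levels of 1043 CPM for WT and 1057 CPM for KO. Sums of 6 plasma cell markers lay between 374.0 and 401.3 CPM in WT and between 380.1 and 426.9 CPM in KO. Most of these was Mzb1 (listed as 2010001M09Rik), at mean levels of 265.2 CPM for WT and 294.4 CPM for KO. Erythroid markers, 3 in the table, summed to between 2679 and 4714 CPM in WT and between 3013 and 7569 CPM in KO. The part of any of these in the differences of Pde4b, Pde4d and Pde3b was not tested.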

How the data were processed

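RNA from sorted follicular B cells was sequenced by the authors with the QuantSeq 3′ kit as single-end reads, aligned to mm10 with STAR and counted per gene with HTSeq. Versions, annotation and strand setting are not given in the sources used here. The deposited values are raw counts per gene, with no normalization and no pooling, and the lowest gene total over the 6 libraries was 10. Libraries were grouped by their titles. Replicate pairs within a group differed by more than sampling noise (chi-square per degree of freedom 6.89 to 10.9 over 6 pairs). Reads carry no molecular identifiers.

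Genes were filtered with filterByExpr and scaled by TMM in edgeR (version 4.0.16), which left 10514 genes, and WT was compared with KO by the robust quasi-likelihood F test, two-sided, with Benjamini-Hochberg adjustment over all tested genes and a threshold of 0.05. Fold changes are WT over KO. The SE was taken from the estimate and its F statistic (estimate over root F), and 95% intervals use the t quantile at the fit's degrees of freedom. The main edgeR fit, edgeR with the replicate block, DESeq2 (version 1.42.0) and limma-voom (limma version 3.58.1) were checked on simulated counts. The changes planted there were larger than those of the called members, and the other alternatives were not simulated. Sums, shares and ratios of members were compared by exact two-sided permutation tests over libraries. Positions are from GENCODE M21 (mm10) and upstream windows from RefSeq (GRCm38.p6). Older symbols were matched through RefSeq synonyms.

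Named genes were the 7 members, the called genes of each pathway list with up to 3 others of highest mean CPM, and the 3 genes most like each called member where the mean count reached 20. The members and lists were chosen with earlier results of these data known. Alternatives were DESeq2, limma-voom, scaling by RLE, by the upper quartile or by totals, no filter, a minimum mean of 50 counts, dispersions that were not robust, a replicate block, leaving out each library, an adjusted p threshold of 0.01, sums without Pde4b or over all phosphodiesterase genes, shares per kb, and ratios of counts plus 0.5. Of the sample columns, 0 were unused. Some genes of the lists are not reported here by name.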

Additional observations from a re-analysis of the deposited data

How the results depend on the processing

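The number of members called was 3 in edgeR. It was 2 under limma-voom, upper-quartile factors and dispersions that were not robust. DESeq2, the other scalings, the other filters and the replicate block kept it at 3. It was 1 (Pde4b) at an adjusted p under 0.01. When one library was left out it was 3 without WT replicate 2 and 1 without any other library. Over all genes 191 were called, against 95 at an adjusted p under 0.01 and 91 to 183 when one library was left out. The lowest of these was without KO replicate 3, and there were 113 without KO replicate 2. A stricter threshold can only lower the count, whereas a fit without one library estimates effects and spread anew. The difference of the summed CPM, 538.9 in the main comparison, was 12.9 without Pde4b, which held most of it, and 513.9 to 580.1 with one library left out. Uncalled members near 0 changed sign when one library was left out: Pde4a ranged from -0.078 to 0.24, Pde7a from -0.20 to 0.052 and Pde8a from -0.46 to 0.13 on the log2 scale. Pde8a gave no value with a mean of at least 50 counts. Shares and ratios are taken within a library, so scaling by library totals cannot change them and is no check of them. Shares per kb and ratios with 0.5 added to counts moved by less than 1 SD of the replicates. The exception was the share of Pde7a, whose difference went from -2.21 to -1.59 percentage points per kb.

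The labels share replicate numbers. Deviations of same-numbered libraries from their group means correlated over 10514 genes at 0.0498, 0.0136 and 0.0432, so the numbers were not taken to pair the mice, although each library correlated best with its own number. With the replicate block 281 genes were called, 190 of them shared with the 191, and the members called stayed at 3, with adjusted p values of 6.17e-07 for Pde4b, 0.0334 for Pde4d and 0.0347 for Pde3b. Depth limits Pde8a and Pde4a most.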
